A study of Mus musculus with 48 samples.

Results

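The collagen-rich cells of the V580 day 6 culture were single-cell barcodes with at least 10 UMIs in all from the collagen genes Col1a1, Col1a2 and Col3a1 and with no UMI from Upk3b, among barcodes with at least 200 genes detected. A barcode labels the RNA of 1 droplet and is taken here as 1 cell, and a unique molecular identifier (UMI) marks 1 captured RNA molecule. Of 15412 barcodes, 1284 met the rule, a share of 8.33% (exact binomial 95% interval 7.90 to 8.78, which covers counting error only). The other 14128 kept barcodes served as the comparison, and 5432 of them held Upk3b, a gene of mesothelial cells. The barcodes were thus selected on 4 measured UMI counts of the same cells, and every gene level in these cells is given as a description and without a test.

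Female mouse embryonic stem cells (ESCs), of the strain C57BL/6 by the labels, had been differentiated with V580, which joins vitamin C (Vc) and the retinoic acid receptor agonist AM580, on plates coated with fibronectin. The ESCs had been grown on inactivated fibroblast feeder cells, which were reduced before induction by letting them adhere. The study named the products gonadal somatic cell-like cells (GSCLCs) and set them against cells taken from E12.5 female gonads (E12.5_GC). One 10x sample of V580 day 6 and 3 bulk libraries each of V580_D4, V580_D6, V580_D8, V580_D10 and E12.5_GC are used here. By the study's methods, magnetic beads removed SSEA1+ cells from the cultures, what was left was called GSCLCs, and the 10x cells carry that name, although the step is not described for the 10x sample itself.

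Fibrillar collagens form the tensile fibres of connective tissue. Their chains are modified and folded in the endoplasmic reticulum with prolyl and lysyl hydroxylases and the chaperone Serpinh1, assembled into triple helices, secreted, trimmed by proteinases and cross-linked by lysyl oxidases. In the fetal gonad such genes are known from interstitial cells, which lie between the supporting cells and hold fibroblast-like, perivascular and steroidogenic lineages, while smooth muscle cells and culture fibroblasts also produce them.

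The 10x sample held 163008244 UMIs. The collagen-rich barcodes had a median of 13706 UMIs and 3940 genes, the other kept barcodes 8008 UMIs and 2726 genes, and the median share of mitochondrial counts was 3.63% and 3.33%. Barcodes without Upk3b and with a collagen sum under 10 had a median of 2608 UMIs, so depth moved with the collagen minimum. A doublet caller (Scrublet) marked 287 collagen-rich barcodes (22.4%) and 3204 others (22.7%). None were removed. The marked share was 34.5% among the 999 barcodes that reached the collagen minimum but held Upk3b.

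The rule largely fixed the levels of its 3 collagens, which were all detected in 1202 of the 1284 barcodes (93.6%). The collagen sum per barcode ran from 10 to 817 UMIs with a median of 25 and quartiles of 16 and 40. The 1284 barcodes held 50.7% of all UMIs of the 3 genes in the sample. Col1a1 was at 6.80 UMIs per 10000 (exact Poisson 95% interval 6.68 to 6.91) against 0.727 (0.713 to 0.741) in the others, Col1a2 was at 8.73 against 1.18, and Col3a1 was at 7.09 against 0.977. Of the collagen UMIs, 38.6% came from Col1a2, 31.3% from Col3a1 and the rest from Col1a1, and in the other barcodes the shares of Col1a2 and Col3a1 were 40.8% and 33.9%.

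Collagen UMIs were also present outside the set. Among 786 barcodes with at least 3 endoderm genes and outside the set, called endoderm-like here, with a median of 24600 UMIs, 20.6% had a Col1a1 UMI. After thinning each barcode to 3000 UMIs, which left out 54 collagen-rich and 5117 other barcodes, Col1a1 was detected in 76.3% of the collagen-rich, 14.2% of the other and 3.88% of the endoderm-like barcodes. Before thinning the shares were 97.9% and 25.8% for the collagen-rich and the other barcodes. The 3 collagens took much the same proportions in the endoderm-like barcodes, with 39.9% from Col1a2 and 33.2% from Col3a1. How much of this came from free RNA in the droplets was not tested.

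The cut at 10 fell within a continuous range. Barcodes without Upk3b numbered 440 at a sum of 5 to 9, 464 at 10 to 19, 489 at 20 to 39, 269 at 40 to 79 and 58 at 80 to 159. The share of barcodes that held Upk3b was 21.4% at a sum of 0, 66.0% at 5 to 9, 54.7% at 10 to 19 and 18.3% at 80 to 159. The 109 barcodes just inside, at a sum of 10 or 11, had Acta2 at 7.81 UMIs per 10000, Col6a2 at 0.376 and Epcam at 0.496. The 139 barcodes just outside, at 8 or 9, had them at 6.62, 0.152 and 1.28.

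**Figure D1:**
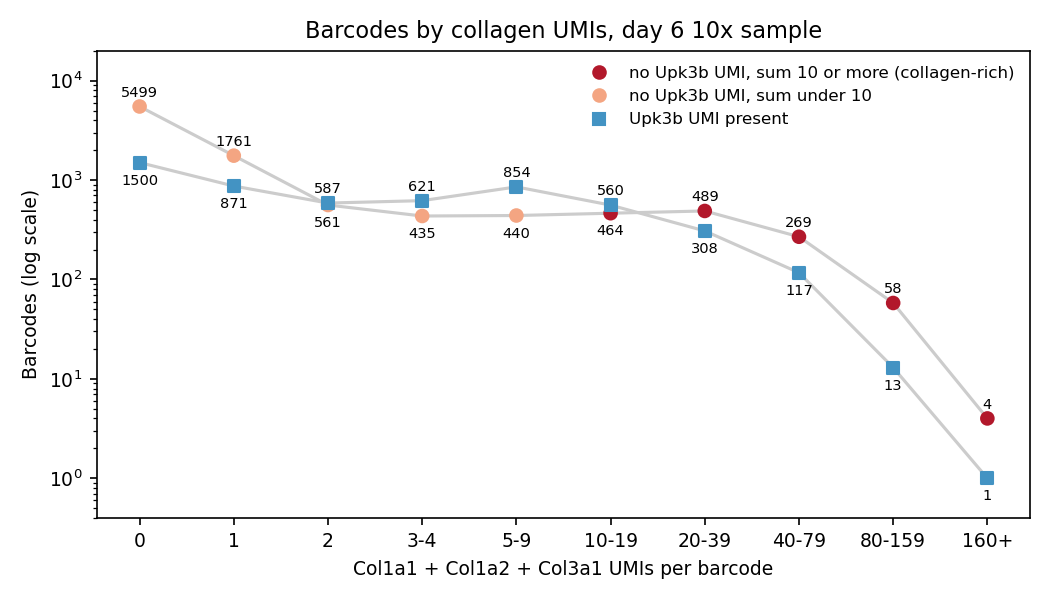
Number of barcodes (log scale) by the summed UMIs of Col1a1, Col1a2 and Col3a1 per barcode, for barcodes without Upk3b (circles, dark red where the rule was met) and with Upk3b (squares). Counts without Upk3b run from 440 at a sum of 5 to 9 through 489 at 20 to 39, with no gap at the cut of 10.

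Matrix and contractile genes led the genes that the rule did not name. Of 16962 genes with at least 20 UMIs in at least 3 barcodes, 1075 (6.34%) were at least 2-fold higher in the collagen-rich barcodes and 1845 (10.9%) were at or below 0.5 of the level in the others, and the median ratio of all genes was 0.992. Lumican (Lum), a small proteoglycan that binds collagen fibrils, had the highest ratio of the 30 leading genes: 0.703 against 0.0339 UMIs per 10000, or 20.7-fold (18.7 to 23.0). It was detected in 26.0% of collagen-rich and 1.76% of other barcodes. Itga8, an integrin chain, was 14.6-fold higher and Col6a2, a chain of the beaded-filament collagen VI, 11.4-fold. Inhba, which encodes the activin A subunit, was at 0.711 against 0.0666, and Ddr2, a receptor tyrosine kinase for fibrillar collagen, at 0.375 against 0.0390.

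Other leading genes encode matrix parts: Matn2, Emilin1, Col6a1, Mfap4, Bgn, Vcan, Tgfbi and Dcn were 6.21-fold to 11.2-fold higher. Dcn, a proteoglycan that regulates fibril width, was at 2.08 against 0.335, and Vcan, a large aggregating proteoglycan, at 1.71 against 0.240. Contractile genes made up a further group. Acta2, which encodes smooth muscle actin, was the most abundant leading gene at 17.4 (17.3 to 17.6) against 2.90 UMIs per 10000, 6.02-fold. Actg2, the enteric smooth muscle actin, was 8.93-fold higher, Mylk, the myosin light chain kinase, 6.28-fold, and Carmn, a non-coding RNA of smooth muscle, 7.27-fold. The remaining leading genes were Dnm3os, Tmem119, Flrt2, Islr, Olfml3, Gucy1b1, Rhoj, Hic1, Inka1, Pgm5, 6030408B16Rik, Rem1 and Snai2, at 5.60-fold to 10.9-fold.

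**Figure D2:**
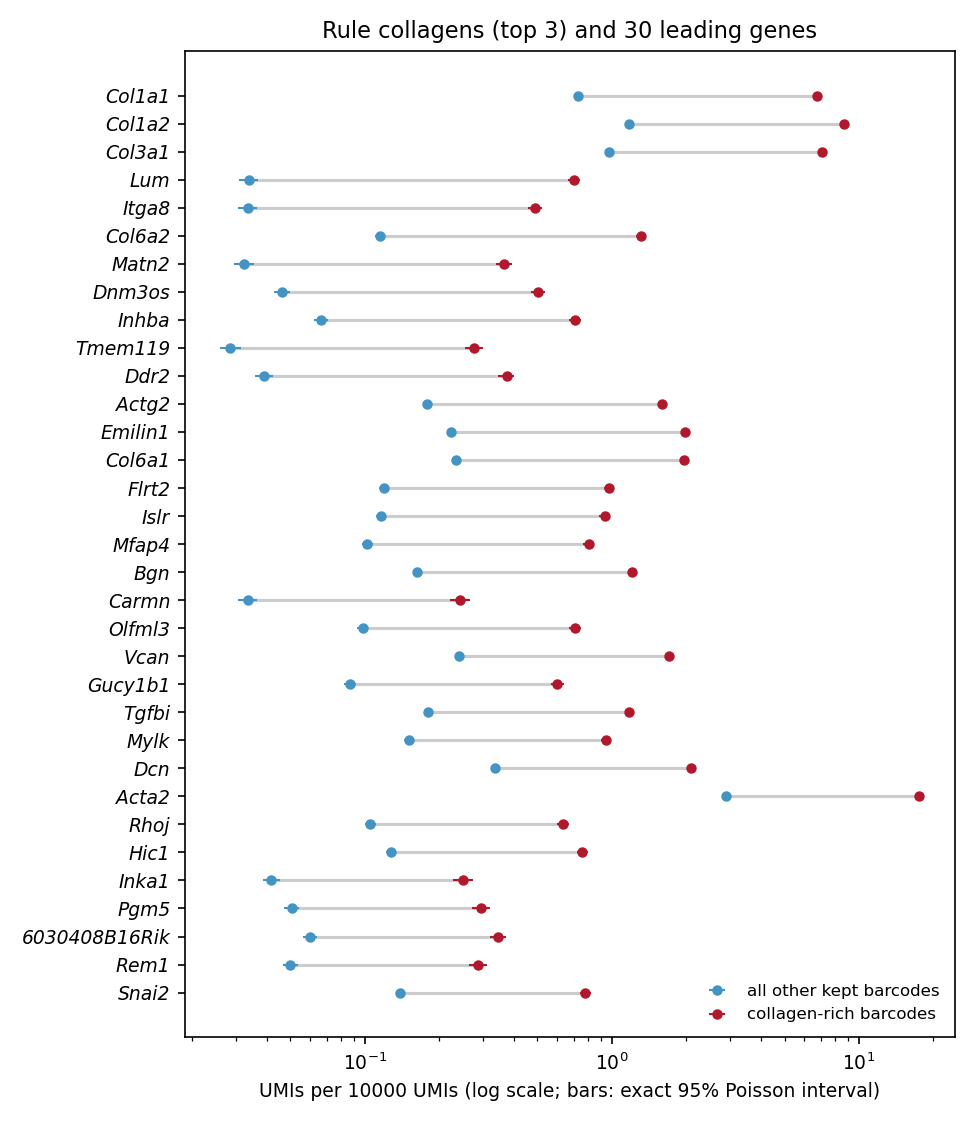
Levels (UMIs per 10000, log scale) of the 3 collagens of the rule and the 30 leading genes in the 1284 collagen-rich barcodes (dark red) and the 14128 other kept barcodes (blue), with exact 95% Poisson intervals that cover counting error only. Acta2 is the most abundant at 17.4 against 2.90 and Lum the most unequal at 0.703 against 0.0339.

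The fibrillar collagens split by chain. Of the 8 fibrillar genes outside the rule, 3 were at least 2-fold higher, against 6.34% of all genes. They were the collagen V chains, with Col5a1 (1.03 against 0.211, 4.87-fold) and Col5a2 (5.41-fold), which co-assemble with collagen I. Col11a1 was at 0.569 against 0.472. Col2a1, the cartilage collagen, was at 0.0669 against 0.293, a ratio of 0.228 that ran up to 0.527 in the alternatives. The non-fibrillar list gave 14 of 19 genes at 2-fold or more and 0 at 0.5-fold or less. All 3 main collagen VI chains were among them, with Col6a3 at 0.135 against 0.00631 (21.4-fold, 16.8 to 27.5), and so were Col14a1 (7.20-fold) and Col12a1 (2.58-fold), which bind to fibril surfaces.

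The main basement membrane collagens went the other way. Col4a1, the main chain of the basement membrane network, was at 3.02 against 8.12 UMIs per 10000, a ratio of 0.372, and Col4a2 was at 2.13 against 4.97. Of 8 genes of that list 4 were at 0.5-fold or less, against 10.9% of all genes. One of the 4, Col4a4, reached a ratio of 1.01 in an alternative. Against barcodes with Upk3b alone, 2 of the 8 were, where all genes gave 8.49%. Col18a1, Col4a5 and Col4a6 lay between, at ratios of 0.624, 1.12 and 1.18. Only Col15a1, which lies between basement membranes and fibrils, was 2-fold or more higher, at 0.144 against 0.00895 (16.1-fold). The laminin chains split likewise. Lama1 was at 0.367 against 1.30, Lama5 at 0.310 against 0.866 and Lamb1 at 1.33 against 2.76, while Lama2 was 8.02-fold and Lama4 5.40-fold higher, from 43 and 297 UMIs. Lama2 and Lama4 are chains of muscle, mesenchymal and vascular laminins. Lama5 and Lamb1 reached ratios of 0.699 and 0.518 in an alternative, and Lamb2 and Lamc1 were at 0.990 and 0.553. In all, 25 of 39 matrix genes were at least 2-fold higher and 4 were at 0.5-fold or less, where all genes gave 6.34% and 10.9%. The abundant matrix gene Sparc was at 14.6 against 18.1, detected in 99.7% of collagen-rich barcodes.

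Genes of the machinery that makes collagen had a median ratio of 1.26. Of 29 processing genes, 6 were at least 2-fold higher, against 6.34% of all genes, and 0 were at 0.5-fold or less. Compared only with barcodes without Upk3b and without a collagen sum of 5 to 9, 10 were higher. Without the barcodes with Xist or Y-linked UMIs, described below, 5 were. Serpinh1, the collagen chaperone, was at 8.19 against 7.11, P4hb, a prolyl hydroxylase subunit, at 2.50 against 2.65, and Plod2, a lysyl hydroxylase, at 1.70 against 2.13. Of the 6, 4 act outside the cell. Pcolce, which enhances procollagen cleavage, was at 1.04 against 0.304 (3.42-fold), the procollagen N-proteinase Adamts2 was 7.33-fold higher and the lysyl oxidase Lox 6.72-fold, beside Adamts14 with 11 UMIs. P4ha3 and Colgalt2, which act in the endoplasmic reticulum, had 107 and 8 UMIs. P4ha3, Colgalt2 and Adamts14 fell under 2-fold in an alternative, at 1.68, 1.52 and 1.94. Of 11 genes of matrix turnover, 6 were 2-fold or more higher. Among them were the gelatinase Mmp2 (2.70 against 1.13), the metalloproteinase inhibitor Timp1 (0.872 against 0.377) and the versicanase Adamts5 (0.602 against 0.215).

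Lists for mesenchymal and muscle cells were read against the background of 6.34%. Of 12 smooth muscle genes, 11 were 2-fold or more higher, and the exception, Tpm1, was at 16.2 against 10.1. Myh11, the smooth muscle myosin heavy chain, was at 0.989 against 0.0826 (11.1-fold to 12.9-fold by its interval), Des (desmin) at 2.65 against 0.662 and Cnn1 (calponin) at 1.65 against 0.421. The defining smooth muscle genes were nonetheless in a minority of barcodes, with Myh11 in 24.1%, Actg2 in 25.5% and Cnn1 in 37.6%. Of 11 fibroblast genes, 6 were 2-fold or more higher, among them Fap (11.6-fold) and Thy1 (7.97-fold), while Cd34, Ly6a and Pi16, known from adult adventitial fibroblasts, had 4, 6 and 14 UMIs and Dpt had 0. Of 6 pericyte genes 2 were higher, Rgs5 (7.48-fold, 88 UMIs) and Pdgfrb (5.06-fold).

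The label interstitial-like was checked against gonad genes. Of 12 gonad interstitial genes, 3 were 2-fold or more higher, against 6.34% of all genes, and 5 were after thinning, with the threshold set per 10000 UMIs or without Upk3b barcodes among the others. The 3 were Bgn, the transcription factor Tcf21 (1.39 against 0.420, in 66.1% of collagen-rich barcodes) and the ligand Wnt5a (1.19 against 0.381). Pdgfra was at 0.448 against 0.275, and Nr2f2, a nuclear receptor of interstitial cells, at 3.23 against 2.70 and in 60.1% of the other barcodes too. Nr5a1, the nuclear receptor of gonadal steroidogenic and supporting cells, had 0 UMIs in all 1284 barcodes. A count of 0 among 18843311 UMIs leaves room for up to 3. Lhx9 had 8 UMIs, and Gata4 was at 0.0945 against 0.362. In the alternatives the ratio of Gata4 reached 0.596 and that of Lhx9 ran from 0.386 to 2.18. Of 7 gonad transcription factors counted, 0 were 2-fold or more higher and 2 at 0.5-fold or less, where all genes gave 6.34% and 10.9%. Of the Leydig genes Cyp17a1, Hsd3b1 and Insl3 had 0 UMIs, Cyp11a1 8 and Star 92, the last 2 at ratios of 0.460 and 1.80. Of the 6 Leydig genes listed, Nr5a1 among them, only Cyp11a1 and Star were frequent enough in the whole sample to be counted. The summed level of the 6 was 0.0531 against 0.0377 in the other barcodes. The lists were thus mixed. Bgn, which the study took as a marker of gonad interstitial cells, was among the higher genes. Most listed genes of the steroidogenic lineage were at or near 0 in the whole sample, so they do not set these barcodes apart. The barcodes are called collagen-rich after their rule.

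Markers of other cell types were low in some lists and mixed in others. In the neuron list 1 of 6 genes was 2-fold or more higher (Stmn2, 4.09-fold) and 1 was at 0.5-fold or less. For cartilage and bone the counts were 1 (Sp7, 3.64-fold) and 2 of 5. For skeletal and cardiac muscle they were 1 (Actc1, 3.11-fold, but 1.72 in an alternative) and 1 of 5. Of 8 granulosa genes 4 were at 0.5-fold or less and 0 at 2-fold or more, where all genes gave 10.9% and 6.34%. Foxl2 had 50 UMIs and a ratio of 1.69. Wt1, shared by mesothelium and gonad, was at 1.56 against 1.93, and the other mesothelial genes were Krt19 (0.745 against 3.21), Lrrn4, Upk1b and Msln at ratios of 0.153 to 0.237, beside Upk3b, which the rule set to 0. The rule thus bears on these genes through the Upk3b barcodes among the others. Compared only with barcodes without Upk3b and without a collagen sum of 5 to 9, Krt19 and Msln had ratios of 0.243 and 0.254, but Lrrn4 had 0.636, Upk1b 0.660 and Wt1 1.80, and the granulosa genes Foxl2 and Wnt4 were 2.22-fold and 2.36-fold higher. All 9 endoderm genes were at 0.5-fold or less, at a summed level of 0.269 against 1.23. After thinning 6 of them were, and Afp, Apob and Amn reached ratios of 1.22, 1.57 and 0.699 in an alternative. Of 7 endothelial genes Emcn was 3.33-fold higher from 20 UMIs, and 1.36-fold in an alternative. Cdh5, Tek and Cldn5 were low with 11, 3 and 0 UMIs, where a count of 0 was raised to 3 for the ratio. In the alternatives Cdh5 stayed at 0.347 or less, but Tek ran from 0.156 to 2.20 and Cldn5 from 0.00136 to 3.66. Of the 7 blood genes only Cd68, with 94 UMIs, was frequent enough in the whole sample to be counted. Ptprc, Lyz2 and the 4 globin genes had 0 UMIs in the collagen-rich barcodes. Of 11 imprinted genes only Ndn (2.39-fold) was 2-fold or more higher and only Peg10 (1.00 against 3.03) was at 0.5-fold or less. Both counts were near the shares of all genes, and Peg3 was at 29.9 against 21.6. The 14 cell cycle genes had ratios from 0.697 to 1.19.

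**Figure D3:**
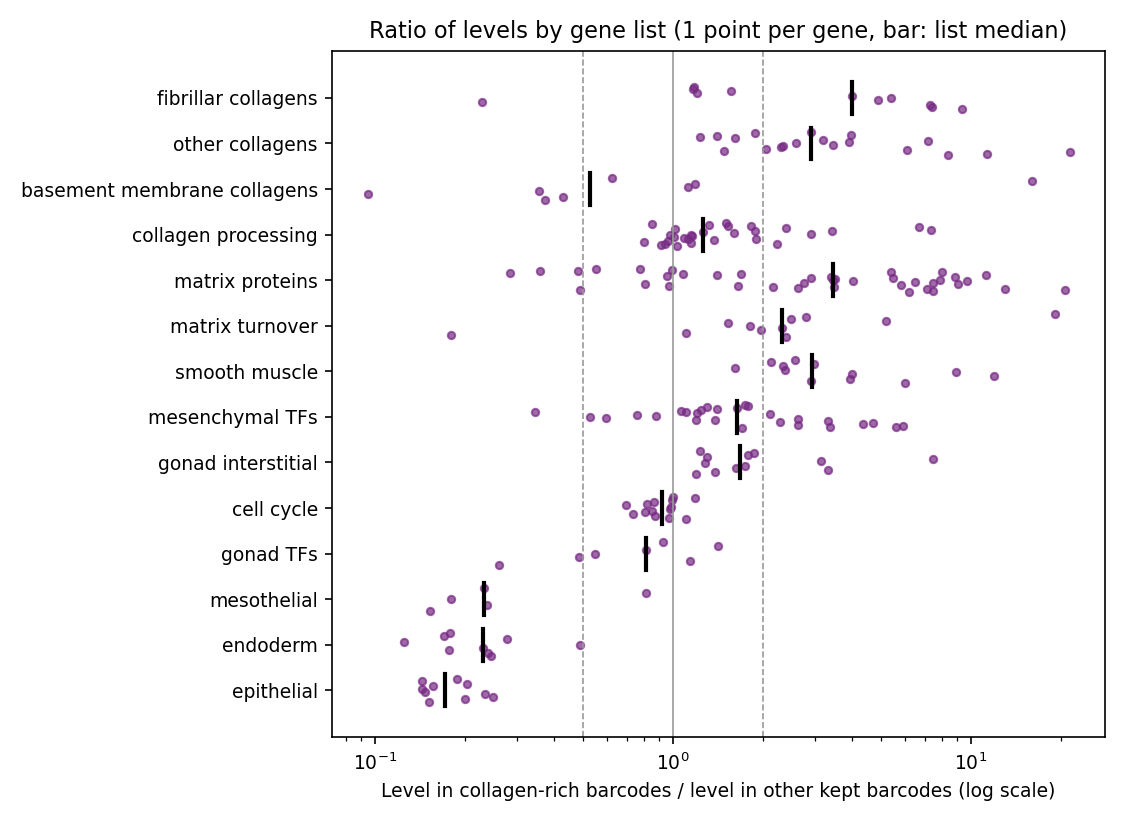
Ratio of the level in collagen-rich barcodes to that in the other kept barcodes (log scale), 1 point for each gene tested, with the list median as a bar and lines at 0.5, 1 and 2. Upk3b is left out. Smooth muscle and matrix genes lie mostly above 2, most processing genes and all cell cycle genes between 0.5 and 2, and all endoderm and epithelial genes below 0.5.

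Epithelial genes were low throughout the list. All 10 were at 0.5-fold or less, against 10.9% of all genes, at a summed level of 3.65 against 17.1 UMIs per 10000. Epcam, an epithelial adhesion molecule, was at 0.302 against 1.99 (0.152-fold), Cdh1 (E-cadherin) at 0.0552 against 0.275, Krt18 at 1.69 against 7.22, and the tight junction genes Cldn4 and Cldn7 had ratios of 0.157 and 0.144. The lowest gene by the naming rule was Dppa5a, a gene of pluripotent cells, at 0.0642 against 0.662. Mesenchymal transcription factors that are known as repressors of epithelial genes were higher. Snai2 was at 0.781 against 0.139, Zeb2 at 1.08 against 0.249 (4.36-fold) and Zeb1 at 1.37 against 0.522 (2.63-fold), and Snai1 was at 0.259 against 0.152. Twist1 (3.36-fold), Twist2 (5.91-fold), Prrx1 (4.68-fold) and Prrx2 (2.28-fold, but 1.86 in an alternative), factors of embryonic mesenchyme, were also higher. Of the 27 genes of the mesenchymal factor list, 10 were 2-fold or more higher, against 6.34% of all genes. Hand1, at a ratio of 0.345, was the 1 at 0.5-fold or less. Tbx20, Tbx18, Foxf1 and Osr1 were at ratios of 0.528 to 0.874.

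Snail and Zeb proteins are known to bind the E-box CACCTG, and the windows before the epithelial genes' starts were read for it. In the 250 bases before the RefSeq start on GRCm38.p6, CACCTG or its reverse complement CAGGTG was present in 8 of 9 epithelial genes with a window, in 19.4% of 27025 genes, in 6 of 13 of the 15 lowest genes, 3 of them also epithelial, and in 1 of 23 of the 3 collagens and leading genes, Hic1. Both spellings are 1 motif read on the 2 strands. Cdh1 and Cldn3 were not among the 8, and only 9 of the 10 listed epithelial genes had a window. The motif was chosen after the levels were known, a match is a string of letters and not a binding site, and no binding was measured. The windows of Epcam, with 2 matches, of Cldn4, with 1, and of Col3a1, with 0, are shown 5′ to 3′ on the gene's strand with the motif in capitals, as the upstream sequence of 2 low genes and 1 high gene.
Epcam, chr17:87635729-87635978, plus strand: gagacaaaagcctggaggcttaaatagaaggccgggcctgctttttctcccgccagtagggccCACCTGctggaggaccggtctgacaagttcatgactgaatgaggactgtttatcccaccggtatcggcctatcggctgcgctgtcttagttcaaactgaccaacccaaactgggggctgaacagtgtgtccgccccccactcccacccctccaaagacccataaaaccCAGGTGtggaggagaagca
Cldn4, chr5:134946935-134947184, minus strand: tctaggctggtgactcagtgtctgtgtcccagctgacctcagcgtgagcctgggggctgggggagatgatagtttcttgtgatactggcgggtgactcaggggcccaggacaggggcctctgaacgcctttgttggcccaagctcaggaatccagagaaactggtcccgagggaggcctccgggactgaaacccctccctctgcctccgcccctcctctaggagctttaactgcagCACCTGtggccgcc
Col3a1, chr1:45311288-45311537, plus strand: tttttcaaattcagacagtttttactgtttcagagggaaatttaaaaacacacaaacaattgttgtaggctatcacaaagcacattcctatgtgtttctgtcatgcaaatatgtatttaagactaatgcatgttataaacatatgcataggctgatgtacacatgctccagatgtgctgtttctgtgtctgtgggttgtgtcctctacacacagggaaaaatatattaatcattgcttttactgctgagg

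Signalling genes varied by role. Among ligands, 7 of 24 were 2-fold or more higher and 7 at 0.5-fold or less, where all genes gave 6.34% and 10.9%. Without Upk3b and low-collagen barcodes among the others, as above, the counts were 9 and 5. Ptn (pleiotrophin) was at 19.4 against 6.16, Tgfb2 at 1.60 against 0.546 and Tgfb1 at 0.207 against 0.0671, and Cxcl12, a chemokine of stromal cells, was 3.68-fold higher. Wnt6, Rspo3, Fst and Pdgfa were at ratios of 0.241 to 0.449, but Rspo3 and Pdgfa reached 0.915 and 0.684 in an alternative. Among 20 receptor and pathway genes, 5 were higher, and 10 in that second comparison. The 5 were Pdgfrb, Fzd1 (4.47-fold), Fgfr1 (2.13-fold), Notch2 (2.04-fold) and Tgfbr2 (2.03-fold), of which the last 3 fell under 2-fold in an alternative, at 1.81, 1.66 and 1.78. The hedgehog genes Ptch1, Smo and Gli1 were at ratios of 1.24, 1.05 and 1.88. In the retinoic acid list, 2 of 18 genes were higher and 5 were at 0.5-fold or less. The higher genes were Crabp1 (2.83-fold) and the retinal reductase Dhrs3 (2.74 against 1.29), with lowest ratios of 1.74 and 1.91 in the alternatives. Aldh1a2, which makes retinoic acid, was at 0.308 against 0.725, but its ratio reached 1.30 in an alternative, and Cyp26a1, which degrades it, at 0.305 against 1.24. The receptor genes Rara, Rarb and Rarg were at ratios of 1.11, 1.69 and 1.86. Cd63, the surface protein with which the study sorted its GSCLCs, was at 5.44 against 4.49.

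The barcodes with Upk3b alone were a second comparison. Of 15973 genes, 923 (5.78%) were 2-fold or more higher and 1356 (8.49%) at 0.5-fold or less. Lum was 15.9-fold, Col6a2 8.24-fold, Myh11 10.9-fold and Acta2 5.76-fold higher. Smooth muscle genes were higher in 10 of 12 and epithelial genes lower in 10 of 10. The 999 barcodes that held both 10 or more collagen UMIs and Upk3b lay between, with Acta2 at 6.74, Dcn at 1.20, Lum at 0.152 and Epcam at 0.545 UMIs per 10000.

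The 1284 barcodes were not uniform and were clustered among themselves into 6 subclusters, whose defining genes are not findings. Subcluster 3 (325 barcodes) was smooth muscle-like, with Lmod1, Myh11, Cnn1 and Actg2 among its top 10 genes. It had Acta2 at 38.7 UMIs per 10000 against 8.78 in the other collagen-rich barcodes, and 8.62% of it was marked as doublets. Subcluster 4 (114 barcodes) was led by Lum, Col14a1, Itga8, Dcn and Col6a2, with Lum at 3.24 against 0.502, Pdgfra at 1.05 against 0.401 and Acta2 at 8.98, and 1 barcode of it was marked as a doublet. It stays unnamed, since 2 fibroblast markers were in its top 10.

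Subcluster 1 (376 barcodes) was led by mitosis genes such as Nusap1 and Mki67 (5.21 against 0.588). Subcluster 2 (356 barcodes) had the lowest collagen sum, a median of 17, with Epcam at 0.478 against 0.244 and Emx2 at 0.578 against 0.283, and 33.7% of it was marked as doublets. Subcluster 5 (90 barcodes) had a median of 2896 UMIs and 18.7% mitochondrial counts and was led by mitochondrial genes. Subcluster 6 (23 barcodes) had a median of 28958 UMIs, high S100g and Cubn, and 20 barcodes marked as doublets. Tcf21 was at 0.676 to 2.26 UMIs per 10000 in the 6 subclusters and Nr2f2 at 1.44 to 4.13.

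**Figure D4:**
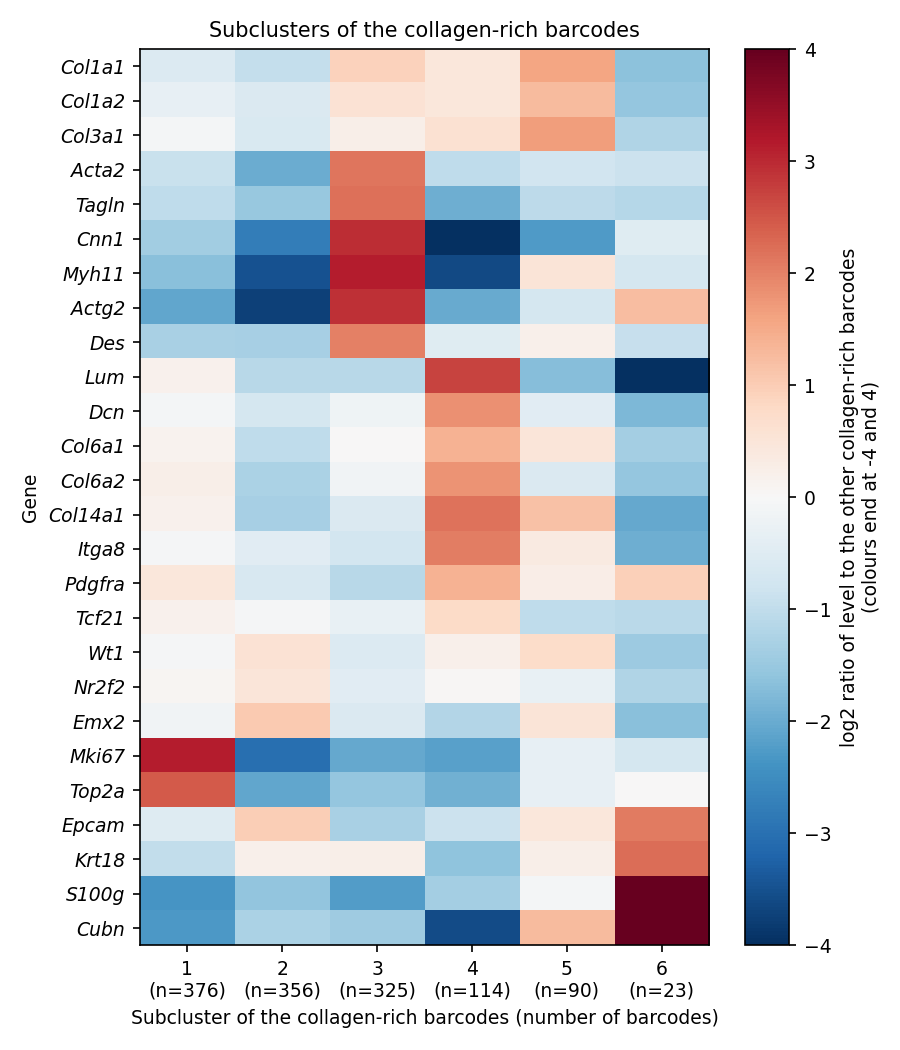
Log2 ratio of the level in each of 6 subclusters to the level in the other collagen-rich barcodes, for 26 genes, with red higher and blue lower and colours ending at -4 and 4. Contractile genes are highest in subcluster 3 and Lum, Dcn, Col6a2 and Col14a1 in subcluster 4, while Mki67 and Top2a are highest in subcluster 1.

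A few barcodes stood apart from the rest. In a culture described as female, 5 collagen-rich barcodes held 18 to 35 Xist UMIs and 2 others held Y-linked UMIs, up to 10, with 0 barcodes holding both. No other collagen-rich barcode had more than 2 Xist UMIs. These 7 were all in subcluster 3, had a median of 30745 UMIs and collagen sums of 41 to 817, and carried 5.63% of the collagen UMIs of the set. They had Mgp at 68.1 UMIs per 10000 against 1.34 in the other collagen-rich barcodes, Spp1 at 19.6 against 0.0140 and Lox at 6.81 against 0.0904, and had Peg3 at 1.76 against 30.3, Nr2f2 at 0.320 against 3.27 and Tcf21 at 0 against 1.41. Of the other 14128 barcodes, 8 met the same cut of 3 Xist or 2 Y-linked UMIs: 7 with 8 to 30 Xist UMIs and 1 with 2 Y-linked UMIs. These 8 had collagen sums of 0 to 1000. The shares were 0.545% of collagen-rich and 0.0566% of other barcodes. The origin of these barcodes was not tested. With the 7 left out of the set and the 8 out of the others, Col1a1 was 9.07-fold, Acta2 5.80-fold, Lum 22.3-fold and Lox 3.76-fold higher than in the other barcodes, Xist had a ratio of 0.419 instead of 5.69, and Mfap5 had 1.26 instead of 3.51. In that comparison 11 of 12 smooth muscle and 24 of 39 matrix genes were 2-fold or more higher and 10 of 10 epithelial genes at 0.5-fold or less, and without the marked doublets the counts were 11, 25 and 10.

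Bulk libraries are samples the rule did not use. FPKM (fragments scaled to gene length and library total) were tested with limma on log2(FPKM+1) in 1 model of 15 libraries, with Benjamini-Hochberg adjustment over 11512 genes and calls at an adjusted p below 0.05 and at least 2-fold. In bulk, a larger share of collagen-rich cells and more RNA per cell cannot be told apart. Of the 30 leading genes 25 were tested. The labels do not say whether the 3 libraries of a day came from separate cultures, so p values measure the spread between these libraries, which may be technical.

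Most of the leading genes rose during V580 culture. Col1a1 was at 42.6, 41.5 and 33.2 FPKM on day 4, 90.1, 82.5 and 83.4 on day 6, 339, 253 and 252 on day 8 and 809, 653 and 884 on day 10. Each day lay above the one before, with no overlap. Earlier libraries of the same table had Col1a1 at 64.4 and 61.3 FPKM at 24 h and 21.2 and 21.0 at 48 h of V580, which were not tested. The log2 change from day 4 to day 6 was 1.11 ± 0.14 (SE, n = 3 and 3; limma adjusted p = 1.74e-05) and from day 6 to day 10 it was 3.17 ± 0.14 (limma adjusted p = 2.08e-10). Both comparisons share the day 6 libraries.

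Col3a1 was at 8.06, 8.25 and 7.92 FPKM on day 4, 43.8, 43.6 and 43.1 on day 6 and 411, 376 and 415 on day 10. It rose by 2.29 ± 0.07 and then by 3.17 ± 0.07 on the log2 scale. Col1a2 was at 22.2, 20.9 and 20.8 on day 4 and 33.1, 33.0 and 32.6 on day 6, a log2 difference of 0.61 ± 0.08 that missed 2-fold (limma adjusted p = 3.92e-05), and reached 215, 189 and 227 on day 10.

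From day 4 to day 6, 15 of the 25 leading genes rose and 0 fell, with a median log2 change of 1.28, where 393 of all genes (3.41%) rose and 192 (1.67%) fell. Lum went from 0.144, 0.116 and 0.136 FPKM to 4.16, 4.19 and 4.28, with no overlap (2.20 ± 0.10 on the log2(FPKM+1) scale, limma adjusted p = 4.18e-10). Hic1, a transcriptional repressor of stromal cells, rose by 2.41 ± 0.11 and Col6a1 by 2.27 ± 0.09. Acta2 was at 205, 189 and 183 on day 4 and 123, 114 and 119 on day 6, a log2 difference of -0.69 ± 0.14, and Bgn at 6.76, 6.47 and 6.36 and then 4.66, 4.0 and 3.96, a difference of -0.53 ± 0.08. Neither reached 2-fold. Of the 12 smooth muscle genes 1 rose, Actg2, and the median of the list was -0.37.

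From day 6 to day 10, 21 of the 25 rose and 0 fell, with a median of 2.05, where 613 of all genes (5.32%) rose and 173 (1.5%) fell. Bgn reached 66.5, 59.6 and 69.3 FPKM, Dcn went from 6.08, 6.34 and 6.27 to 61.9, 58.2 and 59.6, and Acta2 reached 571, 467 and 587 (2.17 ± 0.14 on the log2 scale, limma adjusted p = 7.20e-09). Of the smooth muscle genes 9 of 12 rose, and of the matrix genes 26 of 38 rose and 0 fell. Flrt2, Tgfbi, Pgm5 and Snai2 were the 4 leading genes not called. Ddr2, at 1.01 ± 0.09, was just past 2-fold and fell short of it without V580_D6 replicate 1 (0.99) or V580_D10 replicate 2 (0.98). Of 9 epithelial genes 1, Cdh1, fell from day 4 to day 6 (213 to 83.05 FPKM on average, -1.35 ± 0.18 on the log2 scale), and 0 were called from day 6 to day 10. Epcam was at 155, 159 and 154 FPKM on day 4, 90.8, 80.4 and 83.3 on day 6 and 45.1, 47.1 and 42.7 on day 10, differences of -0.87 ± 0.09 and -0.90 ± 0.09 on the log2 scale.

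Against E12.5_GC, the day 6 libraries had the collagens at an overlapping or lower level. Col1a1 was at 88.8, 91.3 and 72.0 FPKM in E12.5_GC, which overlapped day 6 (log2 difference 0.03 ± 0.14, limma adjusted p = 0.867). Col3a1 was at 76.8, 67.9 and 76.2, above all day 6 libraries (-0.74 ± 0.07, under 2-fold). Of the 25 leading genes 3 were higher on day 6, Ddr2, Actg2 and Acta2, where 813 of all genes (7.06%) were higher, and 7 were lower, Col6a2, Matn2, Col6a1, Islr, Bgn, Tgfbi and Snai2, where 934 (8.11%) were lower. Acta2 was at 14.6, 19.9 and 13.3 FPKM in E12.5_GC (2.84 ± 0.14 on the log2 scale, limma adjusted p = 1.16e-10), and Actg2 at 0.532, 0.411 and 0.164. Ddr2 was at 3.62, 3.84 and 3.70 on day 6 and 1.64, 0.920 and 1.42 in E12.5_GC, a difference of 1.03 ± 0.09 that was 0.90 without E12.5_GC replicate 2. Inhba, at 0.98 ± 0.06, and Pgm5, at 0.92 ± 0.10, were under 2-fold and passed it without V580_D6 replicate 2 (1.02) or E12.5_GC replicate 3 (1.00) and without E12.5_GC replicate 1 (1.04).

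A gene with 0 UMIs in the collagen-rich barcodes was present in E12.5_GC. Nr5a1 was at 71.7, 95.1 and 67.8 FPKM there and at 0.0828, 0.0106 and 0.0198 on day 6. Epcam was at 6.33, 5.25 and 4.48 in E12.5_GC. Other cell types differed as well between these groups. All 8 granulosa genes and 5 of 6 endothelial genes were lower on day 6, against 8.11% of all genes. All 9 epithelial genes were higher, against 7.06%. The part of these cell types in the differences of the leading genes was not tested.

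**Figure D5:**
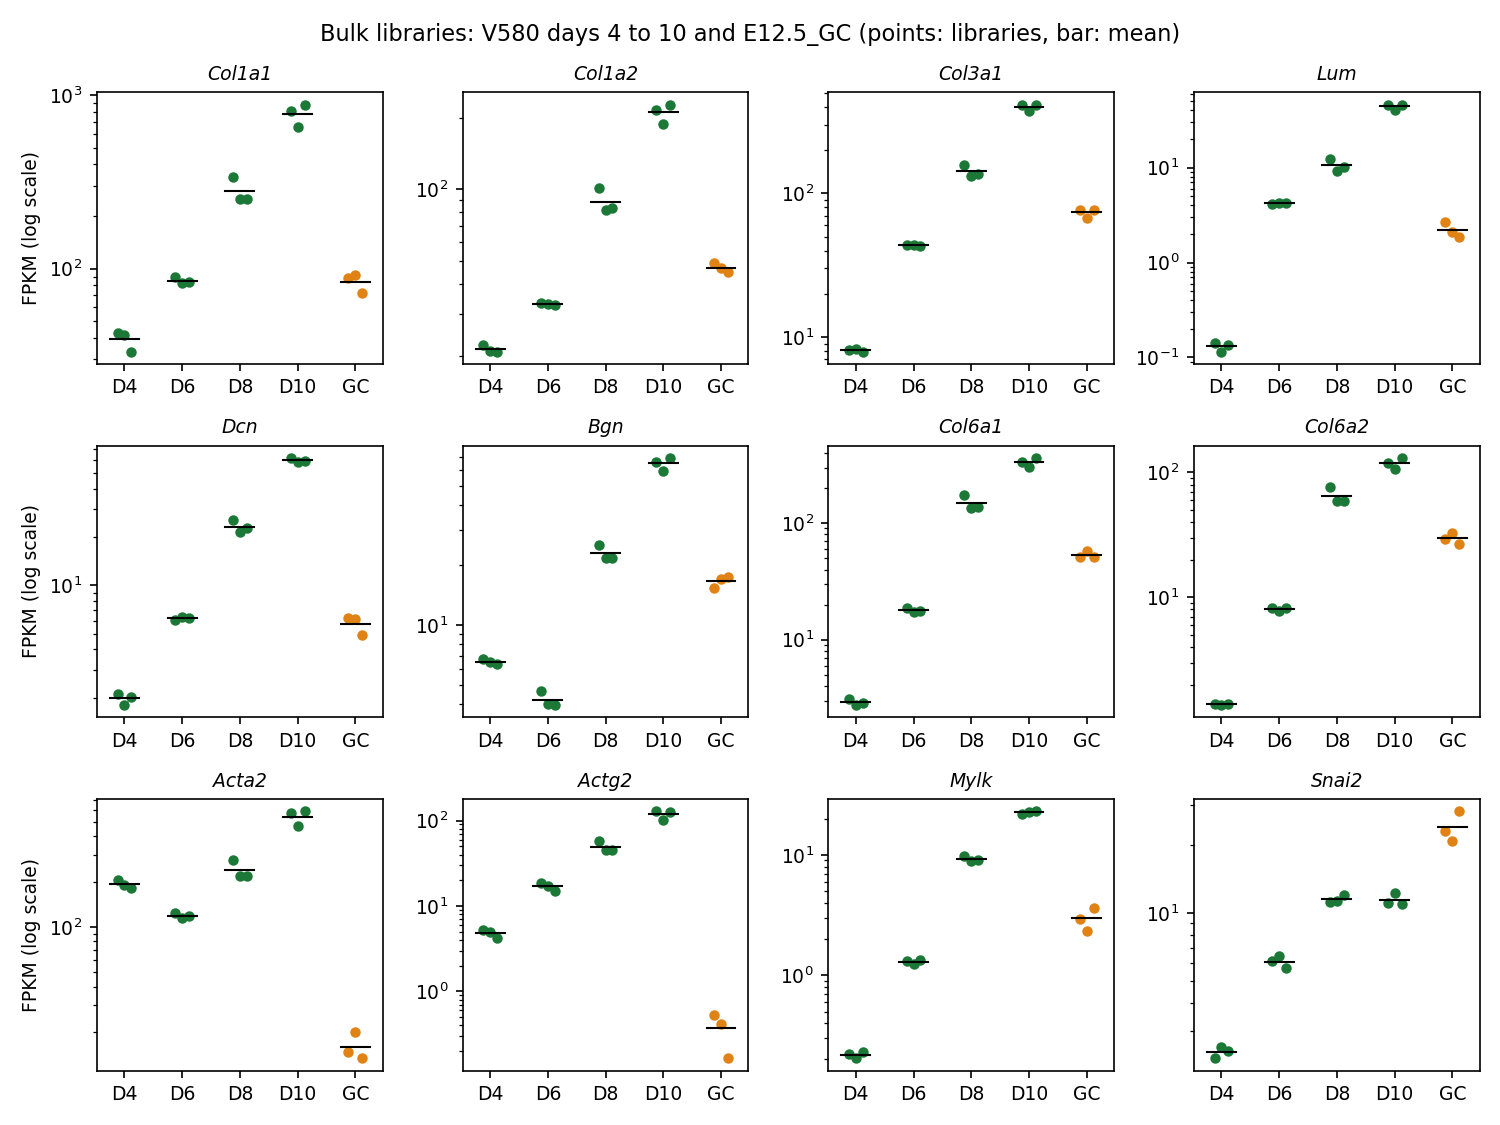
FPKM (log scale) of 12 genes in each of 3 bulk libraries (points) with the mean (bar), for V580 days 4, 6, 8 and 10 (green) and E12.5_GC (orange). Col1a1, Col3a1, Lum, Col6a1 and Mylk are higher on each later day, Bgn and Acta2 are lowest on day 6, and Acta2 and Actg2 are far lower in E12.5_GC than on any V580 day.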

How the data were processed

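The authors deposited UMI counts per gene and barcode for 1 10x sample (Chromium 3′ v2 kit, Cell Ranger, mm10), in which all barcodes had over 200 genes, and FPKM per gene symbol for bulk RNA-seq, aligned to mm10 with Hisat2. The tool that made FPKM is not given in the sources used here, and the depth of those libraries is unknown. The authors' processing notes also name Trim Galore, FastQC, SAMtools, featureCounts and RSEM. The paper describes the 10x work as triplicate, and 1 library is analysed here.

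From the counts, UMIs were summed over barcodes and scaled per 10000, with exact Poisson and binomial 95% intervals (Python 3.11.15, scipy 1.17.1), which cover counting error only. No test was made between barcodes. Genes with at least 20 UMIs in at least 3 barcodes were counted at a fold of 2. The 30 leading genes had at least 100 UMIs and were in at least 25% of collagen-rich barcodes, with the highest ratios, and the 15 lowest genes had at least 100 UMIs and were in at least 10% of the others. Single genes were further named from the lists. Subclusters used scanpy 1.11.5 and leidenalg 0.10.2 (2000 variable genes, 20 components, 20 neighbours, resolution 0.5). Doublets were called at an expected rate of 12% and not removed.

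FPKM were tested with limma 3.58.1 (limma-trend) in R 4.3.3, keeping genes that reached 1 FPKM in 3 or more libraries, without a replicate term. The paper names DESeq2 for counts, which FPKM are not. The members and gene lists were chosen with earlier results of these data known. Promoter windows came from RefSeq (GRCm38.p6), which matched 23 of 33 genes. Windows that overlap an annotated exon were not printed. 1 gene of the lists is not reported here.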

Additional observations from a re-analysis of the deposited data

How the results depend on the processing

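With a collagen sum of 20 or more, 820 barcodes (5.32%) met the rule, and with no condition on Upk3b 2283 (14.8%) did. Against barcodes with Upk3b, genes at 0.5-fold or less numbered 857 in place of 1356 with no condition on Upk3b and 889 after thinning. The other counts over all genes in the 10x comparisons stayed within 1.5 times. Counts in the gene lists moved more: with barcodes without Upk3b and without a collagen sum of 5 to 9 as the others, higher genes went from 5 to 10 among receptors, 6 to 10 in collagen processing, 3 to 5 in the gonad interstitial list, 1 to 4 among imprinted and 0 to 2 among granulosa genes. Without marked doublets, 4 in place of 2 retinoic acid genes were higher. With levels averaged over barcodes instead of summed, 9 in place of 11 of the 12 smooth muscle genes were higher. Of 338 list genes, 217 kept their call (2-fold or more, 0.5-fold or less, or neither) and 270 their side of 1 in the alternatives run. The 30 leading and 15 lowest genes were picked by their ratios in these same barcodes, so keeping a call was largely given by that choice. All 30 leading genes stayed 2-fold or more higher in 11 of 11 alternatives, at ratios of 4.09 to 39.8, and 13 of the 15 lowest genes stayed at 0.5-fold or less. The exceptions were Fgf18 and Lrrn4, whose ratios reached 0.667 and 0.948. Leaving out barcodes with Xist or Y-linked UMIs and a limit of 10% mitochondrial counts were added after the data were seen.

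Of the 3 collagens and 25 leading genes, 17 rose from day 4 to day 6, and 26 rose and 2 fell with no fold threshold. The 24 that rose from day 6 to day 10 ran from 23 to 24 without 1 replicate. Against E12.5_GC, 3 were higher, 5 with a pseudocount of 0.1, 8 with no fold threshold and 2 to 4 without 1 replicate. Lower genes numbered 7, and 15 with no fold threshold. With a replicate block the counts were 17, 24, 3 and 7, as without it. The replicate numbers were not taken to pair the libraries. Of 30 same-numbered pairs, 9 had a correlation of deviations over 0.1 (median 0.0282, highest 0.386). The median for differently numbered pairs was -0.00784. With 3 libraries per group, these values cannot show whether libraries were paired. None of the differences of these 28 genes changed sign in the alternatives run. Ddr2 from day 6 to day 10 also missed 2-fold with median-centred values. The 10x results rest on 1 library, so the spread between cultures cannot be given.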
